A study of Mus musculus with 6 samples.

Results

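Apod and 6 other genes that carry, receive or export lipid in the brain were followed in the striatum of Hdh4/Q80 mice, a model of Huntington's disease. The genes were Apod, Apoe, Clu, Apoc1, Lpl, Lrp1 and Abca1, and every probe set annotated to exactly 1 of these symbols was taken. All 7 genes were measured, out of 8251 genes with such a probe set, and they had 11 of the 12422 probe sets tested. Apod was placed at the head of this group because its values in the contrast of mutant and wild-type mice were already known, so the differences given for the 7 genes between the 2 genotypes are descriptions and carry no test.

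The study measured total RNA from striata of 3 Hdh4/Q80 mice and 3 wild-type littermates on Affymetrix arrays, 1 array per mouse. The mutants, called Hdh4/Q80 transgenic mice in the labels, have a lengthened CAG tract in their own huntingtin gene; no source used here gives the zygosity. The wild types carry no labelled allele. Mice of both genotypes were female, C57BL/6 and 12 months old, with no treatment labelled. Values are log2 expression per probe set as the authors deposited them, and a difference is the Hdh4/Q80 mean minus the wild-type mean on that scale.

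Lipoproteins of the brain are made within it, since those of the blood do not cross the barrier. Astrocytes secrete particles built on apolipoprotein E and clusterin, the exporter ABCA1 loads them with cholesterol and phospholipid, and neurons and glia take them up through receptors such as LRP1. Apolipoprotein D is unlike the others in that it is a lipocalin, a small barrel-shaped carrier of arachidonic acid and other small hydrophobic molecules. In the mouse brain it is made by oligodendrocytes, astrocytes and cells around vessels and in the meninges, and it is known to increase with age and after injury.

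The RefSeq promoter table (build GRCm38.p6) held 4 of the 7 genes. The 250 bases before the start are shown for Apod and for Abca1, because these genes had the lowest and the highest difference among the 11 probe sets. Both lie on the minus strand, and the sequences read 5′ to 3′. Capitals mark matches to CACGTG (the E-box), AGGTCA (a nuclear receptor half-site), CCAAT or TATAAA, each searched on both strands.
Apod, chr16:31314809-31315058: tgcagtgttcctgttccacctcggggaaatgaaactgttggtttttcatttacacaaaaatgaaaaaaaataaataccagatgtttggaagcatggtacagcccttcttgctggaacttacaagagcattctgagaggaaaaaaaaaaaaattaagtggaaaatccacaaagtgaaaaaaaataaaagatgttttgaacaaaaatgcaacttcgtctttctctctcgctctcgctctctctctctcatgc
Abca1, chr4:53159896-53160145: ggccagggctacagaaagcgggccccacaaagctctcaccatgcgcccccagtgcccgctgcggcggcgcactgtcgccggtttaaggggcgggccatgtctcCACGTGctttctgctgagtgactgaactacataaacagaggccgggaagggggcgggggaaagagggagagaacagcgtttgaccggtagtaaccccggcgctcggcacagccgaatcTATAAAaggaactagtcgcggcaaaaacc
The Apod window held 0 matches and was rich in A and T (63.6% of its bases, against a median of 47.6% over the 32851 windows of this length), with a run of 13 C and T bases close to the start. The Abca1 window held 1 CACGTG, found in 6.02% of all windows, and 1 TATAAA, found in 12.4%. AGGTCA was found in 14.0% and CCAAT in 33.8% of windows. These matches describe the letters only.

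Across the arrays, medians lay between 7.10 and 7.13. Hdh4/Q80 replicate 8 stood apart, with a mean correlation of 0.992 with the other arrays over probe sets, against 0.995 to 0.997 for the other mice. Of the 12422 probe sets, 0 (0%) passed limma's test at a Benjamini-Hochberg adjusted p of 0.05, where the smallest adjusted p was 0.857, and 634 had an unadjusted p under 0.05. The targeted gene Htt differed by -0.03 ± 0.0716 (SE) on its brighter probe set and by -0.12 ± 0.0782 on the other, and no source used here places them relative to the CAG tract. Of 16 listed markers of striatal neurons 8 were measured, and 1 of these lay below the lower quartile of every array. The brightest was Penk, the enkephalin precursor, averaging 13.04 in Hdh4/Q80 and 13.02 in wild-type mice on its brightest probe set. Its other probe sets differed by -0.12 and -0.19.

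Among the lipid carriers, 1 of 11 probe sets, that of Apod, was lower in every mutant than in every wild type, and 0 were higher in every mutant. Over all probe sets the groups were apart in this way in 5.05% with the mutants lower and in 6.67% with the mutants higher. Since Apod was chosen on this contrast, nothing is read from its count. Differences were below 0 for 5 and above 0 for 6 of the 11 probe sets, with a median of 0.00, beside a median of 0.00 over all probe sets. The number of probe sets of the group that passed the test was 0.

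Apod was measured by 1 probe set, 93592_at. It read 10.00, 9.98 and 9.85 in Hdh4/Q80 replicates 7, 8 and 9, against 10.44, 10.31 and 10.29 in wild-type replicates 4, 5 and 6. The groups did not overlap, and the highest mutant lay 0.29 below the lowest wild type, a gap wider than the spread within either group on this scale. The means were 9.95 ± 0.083 in Hdh4/Q80 and 10.35 ± 0.0794 in wild-type mice (SD, n = 3 each), a difference of -0.40 ± 0.0761 (SE), or 1.32-fold lower on the array scale. Hdh4/Q80 replicate 8, the array that stood apart, lay between the other mutants for Apod, and without it the difference was -0.42. In tissue RNA, fewer cells of a type and less RNA per cell cannot be told apart.

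**Figure D1:**
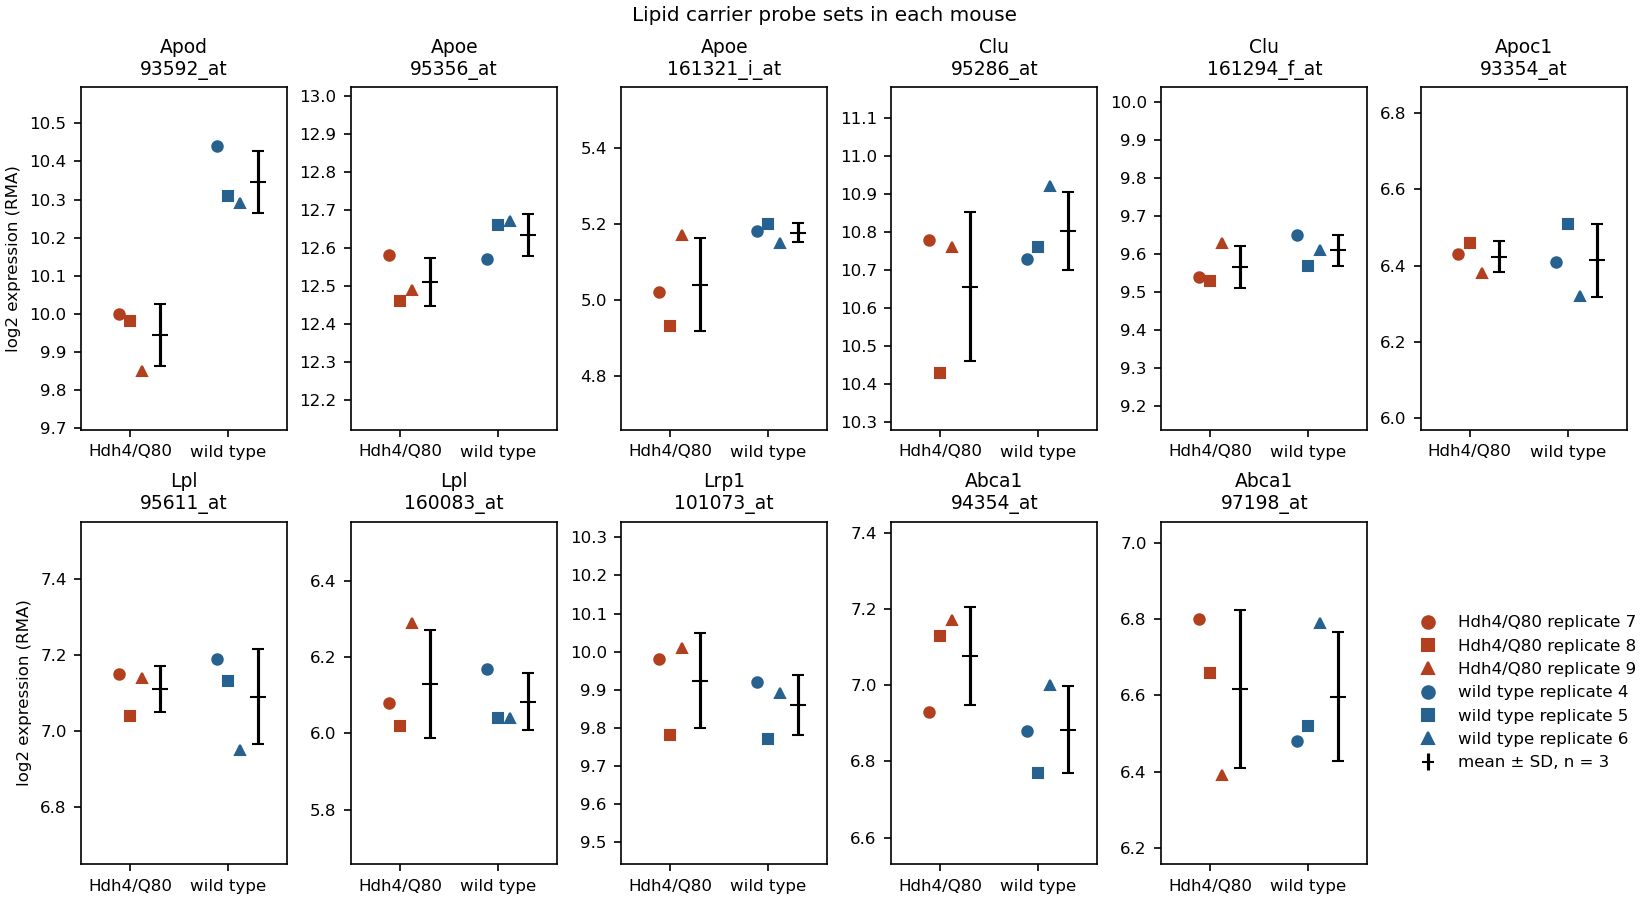
Log2 expression (RMA) of each of the 11 lipid carrier probe sets by mouse, with Hdh4/Q80 mice in red on the left, wild types in blue on the right, and the mean ± SD of 3 mice in black. Every panel spans the same log2 range, and Apod is the panel in which the 3 mutants, at 9.85 to 10.00, lie below the 3 wild types, at 10.29 to 10.44.

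**Figure D2:**
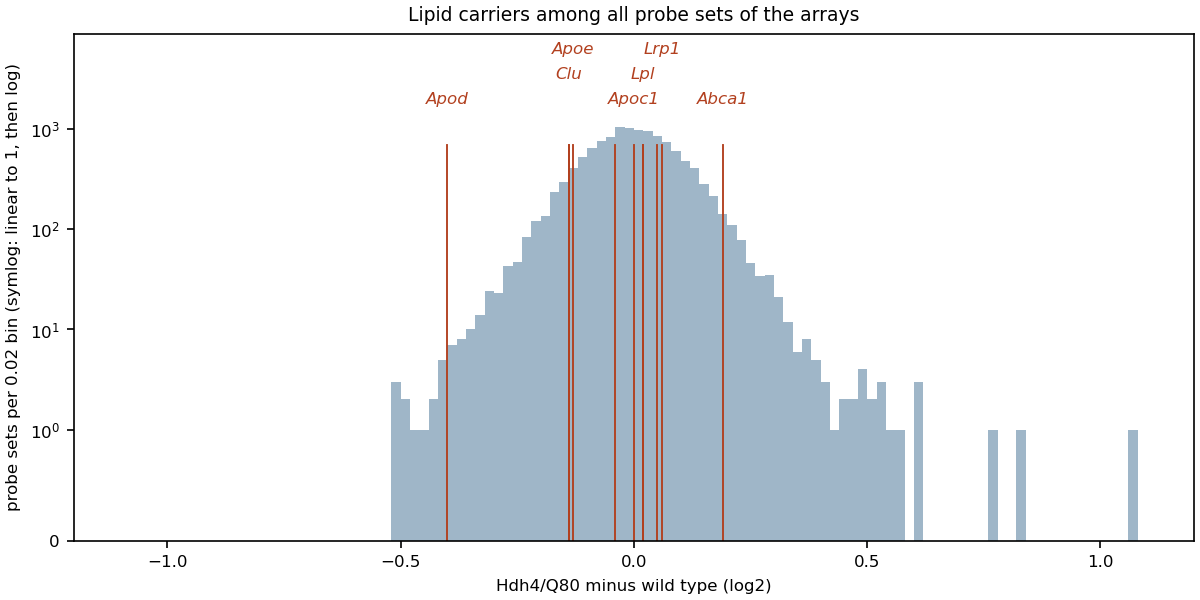
Number of probe sets (axis linear up to 1, then logarithmic) by Hdh4/Q80 minus wild-type difference in log2, with red lines at the 11 lipid carrier probe sets and a name above each gene's brightest one. Apod, chosen with its value in this contrast known, lies at -0.40, Abca1 at 0.19, and the remaining lines lie between -0.14 and 0.06.

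The apolipoprotein genes Apoe, Clu and Apoc1 had smaller differences than Apod and overlapping groups. Apoe, the chief apolipoprotein of brain lipoproteins and a product of astrocytes, read 12.58, 12.46 and 12.49 in Hdh4/Q80 mice, against 12.57, 12.66 and 12.67 in wild types on probe set 95356_at. Hdh4/Q80 replicate 7 stood just above wild-type replicate 4, and all other mutants were below all wild types. The means were 12.51 ± 0.0607 in Hdh4/Q80 and 12.64 ± 0.0577 in wild-type mice (SD, n = 3 each), a difference of -0.13 ± 0.0703 (SE). This probe set was brighter than 99.9% of those on the arrays, and its difference depended on the normalization, becoming -0.01 after quantile normalization and -0.05 after cyclic loess. The other Apoe probe set, 161321_i_at, was dim, with a mean of 5.11 that lay below the lower quartile of every array (5.79 to 5.86). Its suffix marks a set with fewer specific probes. It read 5.02, 4.93 and 5.17 in Hdh4/Q80 mice, against 5.18, 5.20 and 5.15 in wild types. Its difference of -0.14 ± 0.0781 (SE) was -0.08 without Hdh4/Q80 replicate 8, the lowest mouse.

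Clu encodes clusterin, also called apolipoprotein J, a secreted chaperone that rides on lipoproteins. Probe set 95286_at read 10.78, 10.43 and 10.76 in Hdh4/Q80 mice, against 10.73, 10.76 and 10.92 in wild types. Hdh4/Q80 replicate 8 alone was low, and the other mutants lay inside the wild-type range. The difference of -0.14 ± 0.104 (SE) became -0.03 without that mouse. Probe set 161294_f_at, of a type that can bind related transcripts, read 9.54, 9.53 and 9.63 in Hdh4/Q80 mice, against 9.65, 9.57 and 9.61 in wild types. Replicate 8 was again the lowest mouse, here with replicate 7 close above it, and the difference was -0.04 ± 0.0681.

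Apoc1 lies next to Apoe on chromosome 7 and encodes a small apolipoprotein that binds lipoprotein surfaces and slows their uptake. Its probe set read 6.43, 6.46 and 6.38 in Hdh4/Q80 mice, against 6.41, 6.51 and 6.32 in wild types. All mutants lay within the wild-type range, and the means were both 6.42 (SD 0.0416 in Hdh4/Q80 and 0.0945 in wild-type mice, n = 3 each).

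Lpl, lipoprotein lipase, splits the triglycerides of lipoproteins, and in the brain it is made by neurons and microglia. On probe set 95611_at it read 7.15, 7.04 and 7.14 in Hdh4/Q80 mice, against 7.19, 7.13 and 6.95 in wild types, a difference of 0.02 ± 0.0814 (SE). On probe set 160083_at it read 6.08, 6.02 and 6.29 in Hdh4/Q80 mice, against 6.17, 6.04 and 6.04 in wild types, a difference of 0.05 ± 0.0875. The groups overlapped on both, and with 1 mouse left out both differences took either sign (-0.05 to 0.07 and -0.04 to 0.10).

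Lrp1, the large endocytic receptor that takes up particles bearing apolipoprotein E, read 9.98, 9.78 and 10.01 in Hdh4/Q80 mice, against 9.92, 9.77 and 9.89 in wild types. Hdh4/Q80 replicate 8 was again the lowest mutant, close to wild-type replicate 5, and the others were above all wild types. The difference was 0.06 ± 0.0837 (SE) with all mice and 0.14 without replicate 8, when the mutants lay above the wild types without overlap. With that mouse left out, 10.7% of all probe sets were higher and 7.67% lower in mutants without overlap; among the lipid carriers Lrp1 was then the 1 higher and Apod the 1 lower.

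Abca1, the membrane pump that moves cholesterol and phospholipid onto apolipoprotein acceptors, had the highest difference of the group. On probe set 94354_at it read 6.93, 7.13 and 7.17 in Hdh4/Q80 mice, against 6.88, 6.77 and 7.0 in wild types. Replicates 8 and 9 were above every wild type and replicate 7 was not, so the groups overlapped. The means were 7.08 ± 0.13 in Hdh4/Q80 and 6.88 ± 0.112 in wild-type mice (SD, n = 3 each), a difference of 0.19 ± 0.0894 (SE). With array weights, which rest the mutant side mainly on replicate 7, it was 0.04. Probe set 97198_at ordered the mutants the other way round, at 6.80, 6.66 and 6.39 in Hdh4/Q80 replicates 7, 8 and 9, against 6.48, 6.52 and 6.79 in wild types. Its difference was 0.02 ± 0.116, and the 2 probe sets of Abca1 give no common order of the mice.

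**Figure D3:**
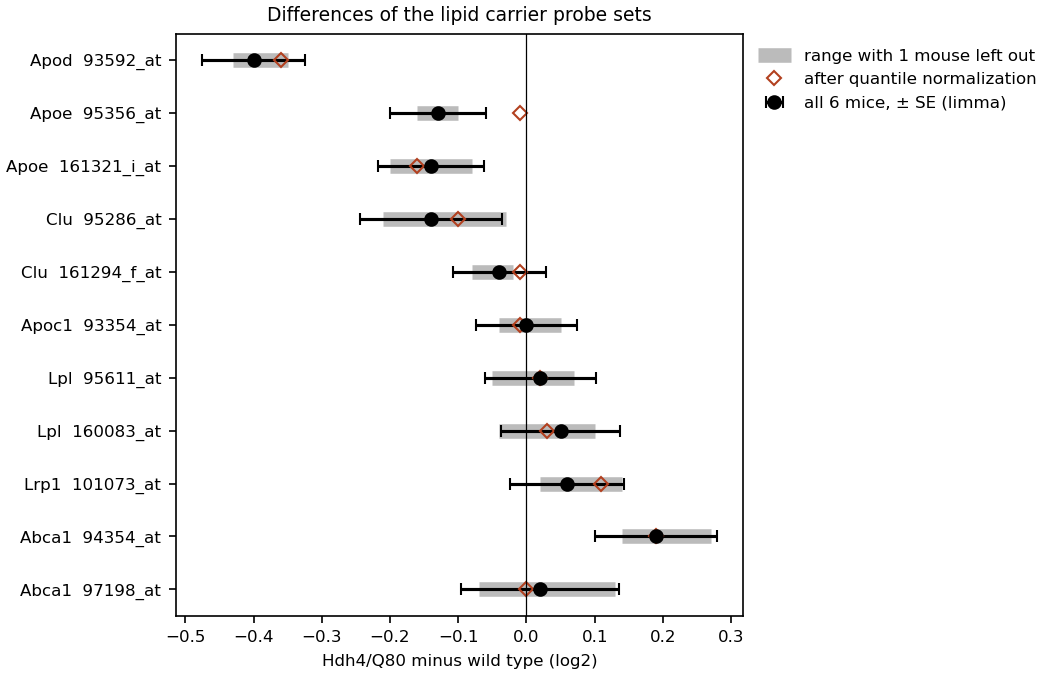
Hdh4/Q80 minus wild-type difference (log2) of each lipid carrier probe set, with black points and bars for the estimate ± SE from all 6 mice, grey bars for the range with 1 mouse left out, and red diamonds for values after quantile normalization. Apod ran from -0.43 to -0.35 with 1 mouse left out, and the diamond lies outside the grey bar for the brighter Apoe probe set (-0.01, against -0.16 to -0.10) and for Clu 161294_f_at (-0.01, against -0.08 to -0.02).

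Around these genes, 5 lists of 92 genes of lipid handling were described, 67 of them measured, each by its brightest probe set. Of the 67, 37 were below 0 and 30 above, with a median difference of -0.01, beside 4396 below, 3855 above and a median of -0.01 over all 8251 genes. None of the 67 passed limma's test in either direction (7 had an unadjusted p under 0.05), and the groups did not overlap for 4 genes with the mutants lower and 5 with the mutants higher. These are shares of 10.4%, 5.97% and 7.46%, beside 4.3%, 5.22% and 5.87% over all 8251 genes. The lists were chosen with earlier results of these data known, so nothing is read from these shares.

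The list of lipoprotein receptors and uptake had 13 of 18 genes measured, 7 below 0, 6 above and 0 past the test (median -0.02). Of its brightest genes, Bsg, a membrane glycoprotein that escorts transporters, differed by -0.09 ± 0.0773 (SE). Lrpap1, the chaperone that keeps LDL receptor relatives free of ligand in the secretory pathway, differed by -0.02 ± 0.0714 (-0.07 on its other probe set), and the HDL receptor Scarb1 by -0.08 ± 0.0814. Dab1, the adaptor of the reelin receptors, read 8.86, 8.51 and 8.65 in Hdh4/Q80 mice, against 9.02, 8.80 and 8.88 in wild types. It differed by -0.22 ± 0.099 on this probe set and by -0.02 on its other one. Lrp2 and Msr1 were named after their values were seen, as the genes of this list whose groups did not overlap. Lrp2, the megalin receptor, averaged 5.73 ± 0.0317 in Hdh4/Q80 and 5.51 ± 0.12 in wild-type mice (SD, n = 3 each). Msr1, a macrophage scavenger receptor, averaged 5.72 ± 0.274 in Hdh4/Q80 and 5.48 ± 0.0599 in wild-type mice, with its other probe set at -0.03. All these means lay below the lower quartile of the arrays.

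Of 20 genes of cholesterol export and its control 10 were measured, with 6 below 0, 4 above and 0 past the test (median -0.03). Abcg1, the exporter that works beside ABCA1 and passes cholesterol to particles that already hold lipid, read 9.08, 9.15 and 9.08 in Hdh4/Q80 mice, against 9.24, 9.16 and 9.16 in wild types. The groups did not overlap, but the difference of -0.08 ± 0.0671 (SE) was close to its error. Abca2, a transporter rich in oligodendrocytes, read 10.01, 9.74 and 10.00 in Hdh4/Q80 mice, against 10.01, 10.03 and 10.10 in wild types, a difference of -0.13 ± 0.0862. Its groups were also apart, though Hdh4/Q80 replicate 7 and wild-type replicate 4 were equal to the second decimal and only replicate 8 was clearly low. The lipogenic transcription factor Srebf1 differed by 0.08 ± 0.0854 and the retinoid X receptor Rxrb, a partner of the liver X receptors that switch on Abca1, by -0.01 ± 0.069.

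Among other apolipoproteins 11 of 15 were measured, and they showed differences between -0.16 and 0.17 with a median of 0.01 (5 below 0, 6 above, 0 past the test). Apoa1, the main protein of HDL in blood, averaged 7.56 ± 0.142 in Hdh4/Q80 and 7.56 ± 0.0346 in wild-type mice (SD, n = 3 each). Apoa5 and Apoa2, apolipoproteins of liver, differed by 0.03 ± 0.0748 (SE) and -0.06 ± 0.0757, with 0.07 and 0.01 on the other Apoa5 probe sets and 0.20 on the other Apoa2 probe set. Apoc2, the activator of lipoprotein lipase and a neighbour of Apoc1, differed by 0.03 ± 0.0772. The gene whose groups did not overlap, Apob, was among the dimmest on the arrays (3.70 in Hdh4/Q80 and 3.87 in wild-type mice) and was named after its values were seen.

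The lipocalins and small lipid-binding proteins, the structural relatives of apolipoprotein D among them, had 17 of 19 genes measured, 10 below 0, 7 above and 0 past the test (median -0.01). Ptgds, the lipocalin prostaglandin D synthase of oligodendrocytes, meninges and choroid plexus, read 11.08, 10.88 and 11.33 in Hdh4/Q80 mice, against 11.30, 11.18 and 11.19 in wild types. The groups overlapped, with the highest and the lowest mouse both mutant, and the difference was -0.12 ± 0.107 (SE). Its other probe sets differed by -0.23 and -0.35. Dbi, the acyl-CoA-binding protein, differed by -0.05 ± 0.111 and the fatty acid carrier Fabp5 by 0.01 ± 0.0726. Ttr, the thyroxine carrier of the choroid plexus and partner of retinol-binding protein, read 8.46, 10.59 and 11.24 in Hdh4/Q80 mice, against 8.48, 8.32 and 10.26 in wild types. It was high in 2 mutants and 1 wild type, and its difference of 1.08 ± 0.671 did not pass the test (adjusted p = 0.857, limma). Orm2 and Fabp4 were named after their values were seen, as the genes here with no overlap, and differed by 0.16 ± 0.0694 and 0.15 ± 0.0744. Fabp4 was dim, at 5.13 in Hdh4/Q80 and 4.98 in wild-type mice, below the lower quartile of every array.

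Lipases and genes of lipoprotein remodelling had 16 of 20 measured, 9 below 0, 7 above and 0 past the test (median -0.01). Pltp, which transfers phospholipid between particles, read 9.42, 9.42 and 9.85 in Hdh4/Q80 mice, against 9.63, 9.56 and 9.59 in wild types. Hdh4/Q80 replicate 9 was the highest and the other mutants the lowest mice, with a difference of -0.03 ± 0.112 (SE). Angptl4, a secreted inhibitor of lipoprotein lipase, differed by 0.09 ± 0.0777 (-0.01, -0.09 and 0.01 on its other probe sets), the basement membrane proteoglycan Hspg2 by 0.06 ± 0.0769 and the phospholipase Plcb1 by 0.14 ± 0.0937 (-0.03 and -0.19 on its other probe sets). Lmf1, a factor needed for the folding of lipoprotein lipase, and Pon1, a paraoxonase carried on HDL, were named after their values were seen as the genes with no overlap. Lmf1 averaged 8.15 ± 0.095 in Hdh4/Q80 and 8.34 ± 0.036 in wild-type mice (SD, n = 3 each), and Pon1 differed by 0.11 ± 0.0737.

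**Figure D4:**
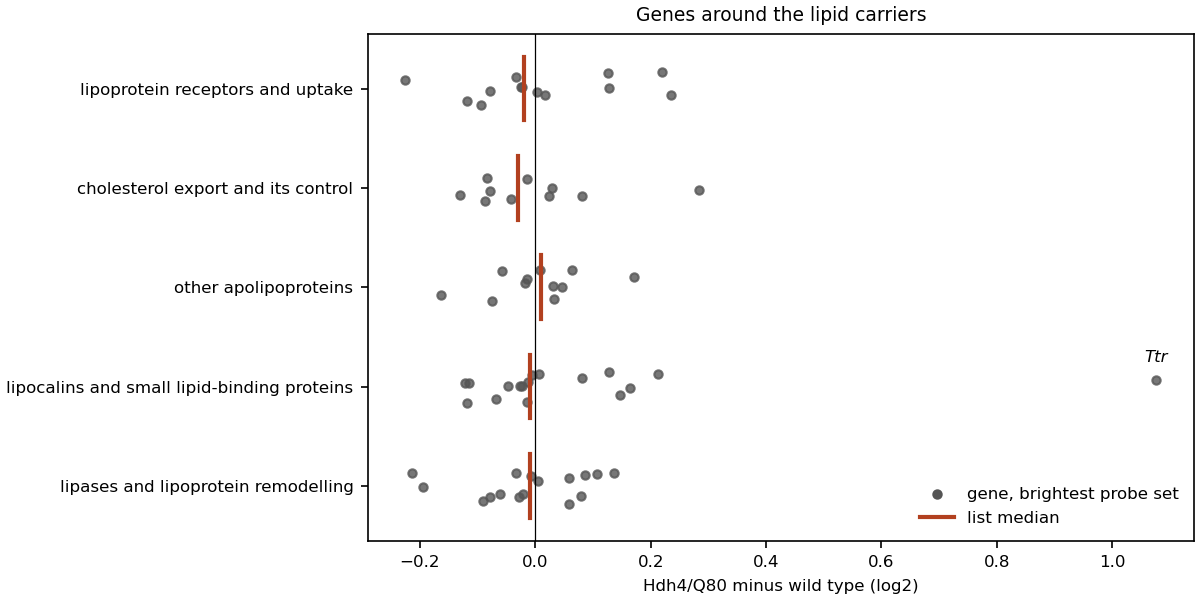
Hdh4/Q80 minus wild-type difference (log2) of the measured genes of 5 lists of lipid handling, 1 point per gene and a red bar at each list's median; vertical scatter within a list has no meaning. The medians lie between -0.03 and 0.01, and Ttr at 1.08 is the point far to the right.

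The genes whose profile over the 6 mice was most like that of Apod were found among 8244 others by the mean absolute difference between log2 deviations from each gene's own mean. The nearest encode the alpha and beta chains of haemoglobin. Hba-a1, alpha-globin, lay 0.0545 from the Apod profile and read 11.32, 11.15 and 11.17 in Hdh4/Q80 mice, against 11.77, 11.63 and 11.52 in wild types. Hbb-b2, a beta-globin, lay 0.0615 away and read 7.91, 7.82 and 7.83 in Hdh4/Q80 mice, against 8.23, 8.13 and 8.06 in wild types. As for Apod, wild-type replicate 4 was the highest and Hdh4/Q80 replicate 7 the highest mutant in both. The next were Slc16a7, a monocarboxylate transporter (0.0711), Vwf, the von Willebrand factor of endothelium (0.0716), and Nnat, neuronatin (0.0722). Slc16a7 was dim, at 4.59 in Hdh4/Q80 and 4.86 in wild-type mice. Vwf averaged 7.23 ± 0.116 in Hdh4/Q80 and 7.53 ± 0.0417 in wild-type mice (SD, n = 3 each), but its other probe set differed by -0.04. Nnat averaged 9.65 ± 0.205 in Hdh4/Q80 and 9.97 ± 0.0367 in wild-type mice. The groups did not overlap in any of these 5, which the measure favours, since the difference between the genotypes makes up most of the Apod profile.

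Beside Apod, 8 lists of cell type markers were set, as the mean log2 level of a list in each mouse. They cover the cells named above as makers of apolipoprotein D and other cells of the tissue. For oligodendrocyte and myelin markers (11 of 18 measured, 9 below 0) this mean was 9.08 to 9.16 in Hdh4/Q80 mice and 9.18 to 9.28 in wild types. The groups did not overlap, and the mean difference was -0.09. Relative to this list the Apod difference was -0.31. The list was uneven, and the genes given here were named after their values were seen. Mobp differed by -0.31 on its brightest probe set and by -0.15, -0.50 and -0.51 on its others. The genes of this list above 0 were Mbp, at 0.01 (0.13 on its other probe set), and Cnp, at 0.12. For astrocyte markers (10 of 15 measured, 8 below 0) the range was 8.93 to 9.07 in Hdh4/Q80 mice and 9.06 to 9.11 in wild types, and Apod relative to this list was -0.33. Hdh4/Q80 replicate 8 alone was low, and the mean difference of -0.07 became -0.02 without it. Microglia markers (11 of 14 measured, 10 below 0) lay at 8.00 to 8.17 in Hdh4/Q80 mice and 8.18 to 8.28 in wild types, and Apod relative to them was -0.27. Here too replicate 8 was the lowest mouse, and the mean difference of -0.13 became -0.07 without it.

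Markers of meninges, perivascular fibroblasts and mural cells (19 of 19 measured, 9 below 0) lay at 7.36 to 7.46 in Hdh4/Q80 mice and 7.33 to 7.41 in wild types, and Apod relative to them was -0.45. The median difference of this list was 0.01. Its highest mice were Hdh4/Q80 replicates 8 and 9 and wild-type replicate 6, in which choroid plexus markers were high as well. Endothelial markers (10 of 13 measured, 5 below 0) lay at 7.15 to 7.20 in Hdh4/Q80 mice and 7.20 to 7.25 in wild types. Apod relative to them was -0.36. Blood markers (4 of 9 measured, 3 below 0) lay at 8.38 to 8.49 in Hdh4/Q80 mice and 8.50 to 8.67 in wild types, and Apod relative to them was -0.26. Within this list Hba-a1 differed by -0.43, Hbb-b2 by -0.29, Alas2 by -0.01 and Slc4a1 by 0.17. Striatal neuron markers (8 of 16 measured, 3 below 0) lay at 9.34 to 9.46 in Hdh4/Q80 mice and 9.25 to 9.49 in wild types, and Apod relative to them was -0.42.

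Choroid plexus markers (5 of 12 measured, 0 below 0) lay at 6.62 to 7.92 in Hdh4/Q80 mice and 6.58 to 7.29 in wild types, and Apod relative to them was -0.96. Hdh4/Q80 replicates 8 and 9 and wild-type replicate 6 were high, whereas Hdh4/Q80 replicate 7 (6.62) was level with wild-type replicates 4 (6.61) and 5 (6.58). In these 3 mice, grouped after seeing the data, Apod read 10.00, 10.44 and 10.31. Hdh4/Q80 replicate 7 was the only mutant among them, so these values give no comparison of the genotypes. Of the 78 measured marker genes 0 passed limma's test in either direction, and 15 (19.2%) had an unadjusted p under 0.05, beside 355 (4.3%) of all 8251 genes. Without overlap of the groups, 12 (15.4%) were lower and 3 (3.85%) higher in mutants, beside 5.22% and 5.87% of all genes. The marker lists were chosen with earlier results of these data known, so nothing is read from these shares. The values of Apod relative to a list are plain differences of means and no adjustment for cell content. The part of any of these cell types in the Apod values was not tested.

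**Figure D5:**
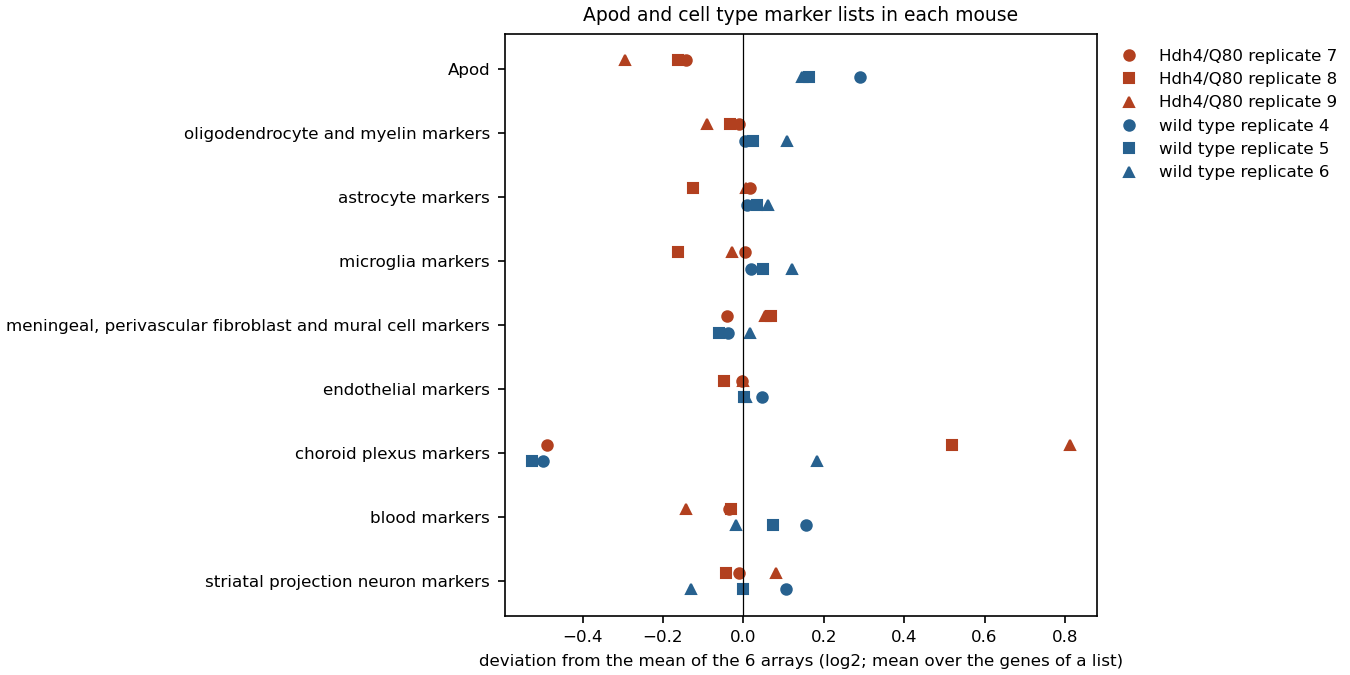
Deviation from the mean of the 6 arrays (log2) for Apod and, as the mean over genes, for 8 lists of cell type markers, with Hdh4/Q80 mice in red above and wild types in blue below in each row. The genotypes do not overlap for Apod, with the highest mutant at -0.142 and the lowest wild type at 0.147. They are also apart, but narrowly, for the oligodendrocyte, microglia, endothelial and blood lists. The narrowest is the endothelial list, with the highest mutant at -0.00181 and the lowest wild type at 0.00137. The choroid plexus list is high in Hdh4/Q80 replicates 8 and 9 and wild-type replicate 6.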

How the data were processed

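Striatal RNA of 6 mice was measured on 6 arrays, 1 per mouse. The authors deposited log2 values, 1 per probe set and array; the submitters' processing notes name RMA and affy, without versions. RMA equalises arrays and shrinks fold changes of dim and nearly saturated probe sets. No detection calls were used, so no gene could be called absent. The small number of arrays limits the precision.

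Groups came from the sample titles, and the design text counts mice. Of 12488 probe sets 66 controls were left out. Genes were named from the platform annotation where it gave 1 symbol (10833 probe sets), and 8237 of 8251 genes matched RefSeq identifiers (GRCm38.p6). The brightest probe set stood for a gene. All 12422 probe sets were fitted with limma 3.58.1 in R 4.3.3 (lmFit, eBayes; 4 residual and 5.81 prior degrees of freedom, Benjamini-Hochberg, threshold 0.05, two-sided), which gave differences and SE. The fit was run on simulated data with independent normal noise and no outlying array, so this does not show how it behaves on these arrays.

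The members, the gene lists and the tests were chosen with earlier results of these data known. Named were all probe sets of the 7 genes, the 4 brightest genes of each lipid list and any past the threshold. Also named were the 5 genes most like Apod, Htt, and those stated as named later. Of the marker lists, summaries are given, with single genes of some lists. Alternatives were filtering, normalization, moderation, array weights, averaging probe sets and leaving out each mouse.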

Additional observations from a re-analysis of the deposited data

How the results depend on the processing

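Under 12 alternatives run on probe sets, 0 probe sets passed limma's test (251 to 1812 had an unadjusted p under 0.05, the highest with array weights), and 0 of the measured genes of the 5 lipid lists passed under these or when the probe sets of a gene were averaged. The Apod difference stayed between -0.43 and -0.33, and was -0.43 to -0.35 with 1 mouse left out. Of 135 values of the lipid carriers under alternatives, 3 moved by more than the SD between mice: the brighter Apoe probe set after quantile normalization (-0.01) and cyclic loess (-0.05), and Abca1 94354_at with array weights (0.04); the cause was not tested. Without Hdh4/Q80 replicate 8, a choice made after seeing the data, 7 of 11 probe sets were below 0, against 5 with all mice. Those that changed sign, Apoc1 and Abca1 97198_at, were then at -0.01 and 0.00. Without that mouse 1 probe set was lower without overlap (7.67% of all probe sets) and 1, Lrp1, was higher (10.7% of all probe sets). All 65 list medians kept within 0.05 of their value. No paired analysis was made, because the labels do not say which mice shared a litter. Dim probe sets (the second Apoe set, Lrp2, Msr1, Apob, Fabp4, Slc16a7) bound changes weakly.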
